A study of Caenorhabditis elegans with 2 samples.

Results

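The genes described here carry symbols of RNA polymerase II subunits (rpb-), Mediator subunits (mdt-) and TBP-associated factors of TFIID (taf-) in Caenorhabditis elegans. They were taken by symbol from the protein-coding genes of the Ensembl annotation of WBcel235, which gave 48 genes (11 rpb, 20 mdt and 17 taf) of 19973. The data are peak lists from chromatin immunoprecipitation sequencing (ChIP-seq), in which DNA bound by a tagged protein is pulled down and sequenced, and places where reads pile up are called as peaks. The protein was CEH-31, a Bar-class homeodomain transcription factor, carried as a fusion with GFP and FLAG at its C terminus in strain OP370 (unc-119(tm4063) III; wgIs370) and pulled down with an antibody against GFP. Whole late embryos, labelled hermaphrodite, were collected 5 h after synchronization by bleaching, as 2 biological replicates that form 1 group. All cells of the embryo were pooled, so a peak carries no information on which cells it came from, and every animal carried the transgene and the unc-119 allele.

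RNA polymerase II transcribes all protein-coding genes. TFIID, built from TBP and the TAFs, recognises core promoters, and many TAFs meet one another in pairs through histone folds. Mediator joins transcription factors bound at a distance to the polymerase and is divided into head, middle and tail modules and a separable kinase module. These complexes work in nearly every cell, whereas Bar-class homeodomain factors are best known, from Drosophila, for specifying particular sense-organ cells.

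A gene was counted as having a promoter summit where the highest point of a peak lay from 1000 bp upstream to 200 bp downstream of its annotated start, the outermost start of its transcripts. For many C. elegans genes that start is a trans-splice site and not the point where transcription begins. The optimal list holds the 3697 peaks that the authors kept at their threshold of reproducibility between replicates. The relaxed pooled list holds 24555 peaks, and the relaxed lists of replicate 1 and replicate 2 hold 21175 and 22471. Signal is the score that the authors' peak caller gave each peak, and ran from 90.5 to 3595 in the optimal list. Its scale is not given in the sources used here and differs between lists, so strength was compared by rank within a list, rank 1 being the strongest. With 2 replicates in 1 group and no read counts, no test between groups was possible and read depth is unknown.

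The DNA under 7 of the 8 strongest summits in the windows of these genes is shown first. Another gene's start was nearer to the summit for mdt-8, taf-7.2, mdt-9 and mdt-19. The taf-4 summit, stronger than those of mdt-26 and rpb-11, is not printed. Each line holds 101 bases of WBcel235 (ce11) from the RefSeq genome, with the summit in the middle, on the strand of the named gene and read 5′ to 3′. Capitals mark GAGAGA or TATAAA on either strand, motifs that were chosen after the sequences had been seen. The windows were chrII:11534737-11534837 (minus strand) for mdt-8, chrIII:11870131-11870231 (minus) for taf-12, chrIII:12673516-12673616 (minus) for taf-7.2, chrIV:13386192-13386292 (plus) for mdt-9, chrIII:2597199-2597299 (plus) for mdt-19, chrII:5661095-5661195 (plus) for mdt-26 and chrII:14059908-14060008 (plus) for rpb-11.
mdt-8: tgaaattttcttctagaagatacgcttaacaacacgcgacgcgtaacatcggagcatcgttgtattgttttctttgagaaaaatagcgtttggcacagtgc
taf-12: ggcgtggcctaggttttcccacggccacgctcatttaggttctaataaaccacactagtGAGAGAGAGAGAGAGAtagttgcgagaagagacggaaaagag
taf-7.2: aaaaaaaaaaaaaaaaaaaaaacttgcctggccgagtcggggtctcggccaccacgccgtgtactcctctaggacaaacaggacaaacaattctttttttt
mdt-9: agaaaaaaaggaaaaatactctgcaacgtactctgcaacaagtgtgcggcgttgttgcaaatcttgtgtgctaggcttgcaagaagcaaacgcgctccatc
mdt-19: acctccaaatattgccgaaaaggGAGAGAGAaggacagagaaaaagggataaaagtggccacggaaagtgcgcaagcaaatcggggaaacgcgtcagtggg
mdt-26: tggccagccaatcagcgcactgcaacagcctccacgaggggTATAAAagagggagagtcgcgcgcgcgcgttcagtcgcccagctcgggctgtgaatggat
rpb-11: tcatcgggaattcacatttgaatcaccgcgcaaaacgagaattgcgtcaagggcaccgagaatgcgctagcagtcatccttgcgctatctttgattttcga

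None of the motifs searched was common to the 7 windows. The taf-12 window holds an uninterrupted GA repeat just 3′ of the summit, mdt-19 holds a shorter one, and mdt-26 holds a TATAAA in DNA that is 62.4% G or C. The taf-7.2 window opens and closes in runs of a single base, and the mdt-8 window, under the strongest summit, holds neither motif at a GC content of 40.6%. Letters that Bar-class homeodomains are known to prefer, TAATTG and TAAACG, are in none of the 7 windows. A TAAACG lay 62.5 bp from the taf-7.2 summit, outside its printed window, and is shown here at chrIII:12673606-12673651 on the minus strand, where it reads as its reverse complement in capitals.
taf-7.2 core: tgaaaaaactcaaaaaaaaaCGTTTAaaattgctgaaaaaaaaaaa

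Among the 48 genes, 18 (37.5%, 95% Wilson interval 25.2% to 51.6%) had a promoter summit in the optimal list, where 11.5% of all protein-coding genes had one. In the pooled list 33 of the 48 had one (68.8%, interval 54.7% to 80.1%), against 33.5% of all genes. The relaxed replicate lists each gave 32 of 48 (66.7%), against 31.1% of all genes in replicate 1 and 32.3% in replicate 2. A stricter count kept a summit only for the gene whose start was nearest to it, and left 10 of 48 (20.8%, interval 11.7% to 34.3%), against 8.49% of all genes. These intervals cover the number of genes only, neighbouring genes share peaks, and no test was made on the list.

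**Figure D1:**
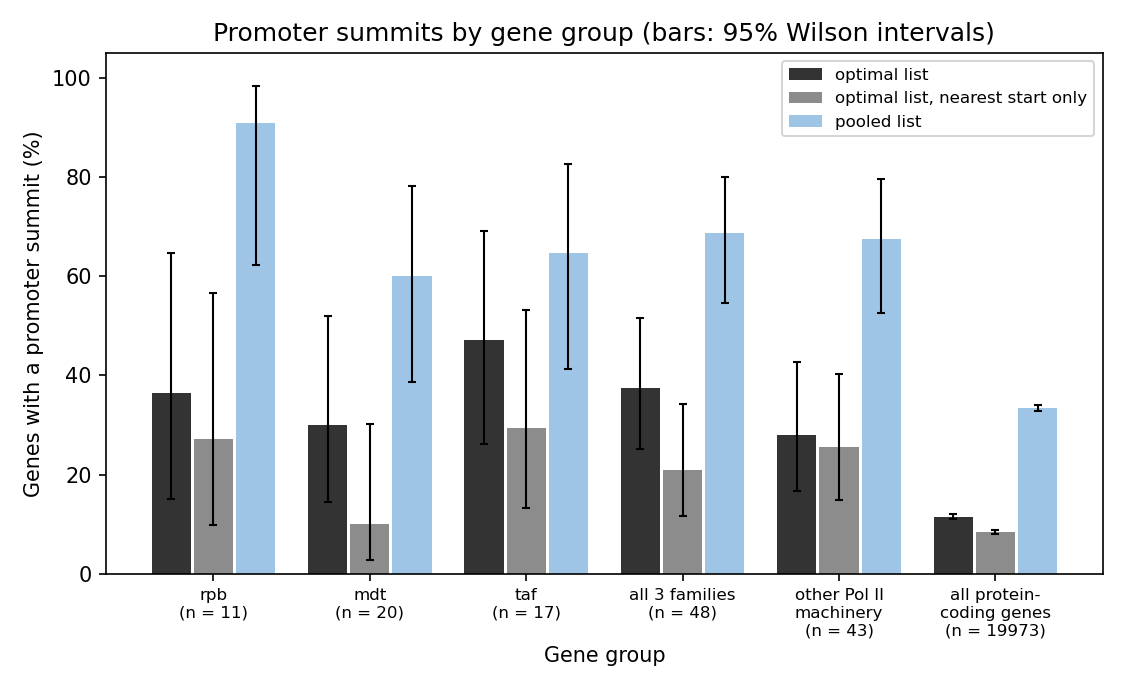
Share of genes with a promoter summit (y axis, %) in the optimal list, the optimal list with each summit given to the nearest start only, and the pooled list, for rpb, mdt, taf, the 3 families together, 43 other genes of the Pol II machinery and all protein-coding genes. Error bars are 95% Wilson intervals. The 3 families together stand at 37.5%, 20.8% and 68.8%, and all genes at 11.5%, 8.49% and 33.5%.

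The families had overlapping shares in the optimal list. Over all genes the share was 11.5%, and 33.5% in the pooled list. Summits of the optimal list were found at 4 of 11 rpb genes (36.4%, interval 15.2% to 64.6%), 6 of 20 mdt genes (interval 14.5% to 51.9%) and 8 of 17 taf genes (47.1%, interval 26.2% to 69.0%). Pooled summits were found at 10 of 11 rpb genes (90.9%), 12 of 20 mdt genes and 11 of 17 taf genes (64.7%). Signal of the optimal summits ran from 111 to 198 at rpb genes (median 123), from 98.7 to 873 at mdt genes (median 253) and from 91.1 to 527 at taf genes (median 156).

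Of the polymerase subunits, the rpb-3 and rpb-11 pair, which form the heterodimer on which the enzyme is assembled, both had an optimal summit. The rpb-11 summit had a signal of 198 (rank 1132 of the optimal list) and lay 127 bp upstream of the start, with 108 in replicate 1 and 99.4 in replicate 2. The rpb-3 summit had 111 (rank 2823), 129 bp upstream, with 53.4 in replicate 1 and 56.8 in replicate 2. Both were thus at nearly the same distance from the start, with the rpb-3 summit in the lower part of the list. The rpb-3 summit lay in the gap of 276 bp to pas-4, a proteasome subunit gene that is read the other way.

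The subunits shared with the other nuclear polymerases, rpb-5, rpb-6, rpb-8, rpb-10 and rpb-12, had pooled summits at 5 of 5 genes, against 33.5% of all genes. An optimal summit was found at 1 of the 5 (interval 3.62% to 62.4%), against 11.5% of all genes. That one was rpb-8, with a signal of 133 (rank 2192) at 152 bp upstream, 60.5 in replicate 1 and 70.2 in replicate 2. Its window overlapped that of rars-1, which encodes arginyl-tRNA synthetase. The rpb-12 summit fell short of the optimal list at a pooled signal of 84.4 (rank 4066), with 44.4 in replicate 1 and 31.2 in replicate 2.

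The stalk of the polymerase is a pair as well, Rpb4 and Rpb7 in yeast. The rpb-7 summit had a signal of 113 (rank 2741) and lay 34 bp downstream of the start, in a coding exon, with 40.9 in replicate 1 and 70.9 in replicate 2. It was 31 bp upstream of the start of Y54E10BR.2, which is nearer. The rpb-4 summit was in the pooled list but not the optimal one, at 78.7 (rank 4436), 139 bp upstream, with 28.6 and 50.3 in replicates 1 and 2. Both stalk summits ranked lower in replicate 1 (4452 for rpb-7 and 8008 for rpb-4) than in replicate 2 (2127 and 3522). For rpb-2, the second largest subunit and part of the catalytic centre, the pooled list held a summit 416 bp upstream and the optimal list none, and for rpb-9, a subunit at the enzyme's edge that acts in transcript cleavage, no list held one. The largest subunit gene, ama-1, lies outside the symbol rule and had a pooled summit of 73.6 (rank 4885) at 267 bp upstream, with 39.2 in replicate 1 and 35.1 in replicate 2.

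Among the mdt genes the strongest summit was that of mdt-8, which encodes a head subunit. Its signal was 873, rank 16 of 3697, with 413 in replicate 1 (rank 17) and 457 in replicate 2 (rank 14). The summit lay 971 bp upstream of the mdt-8 start and only 308 bp upstream of Y62F5A.12, a gene on the same strand that ends 109 bp before mdt-8 begins. The strongest signal of the whole set therefore lay nearer to another gene, and just inside the window of mdt-8.

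Head genes mdt-6 and mdt-22 had weaker summits. The mdt-6 summit had 189 (rank 1230), with 72.7 in replicate 1 and 114 in replicate 2, at 917 bp upstream. It fell in the 5′ UTR of Y57E12AL.1 and in the window of Y57E12AL.6 too, which lies 38 bp before mdt-6 on the same strand. The mdt-22 summit had 98.7 (rank 3329), with 55.4 in replicate 1 and 53.1 in replicate 2. It lay 40 bp upstream of mdt-22 in an intron of clpp-1, the gene of a mitochondrial protease, in which mdt-22 begins, and in no other gene's window. Summits of the 2 replicates were 113 bp apart there, the widest gap of the 18 genes, whose median was 19 bp.

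Head subunits are known from yeast Mediator to contact one another. The genes of Med18 and Med20, which pair and join Med8, are mdt-18 and mdt-20, and no list held a summit in the window of either. With any annotated transcript start in place of the outermost one, mdt-18 had an optimal summit. Med11 and Med22 pair as well, and mdt-11 had a summit in the pooled and replicate 1 lists but not in the optimal list. Modules were counted for genes with mdt symbols only, so Mediator genes under other symbols are left out. An optimal summit was found at 3 of 9 head genes, 3 of 8 middle genes and 0 of 3 tail genes. The tail genes were mdt-15, mdt-27 and mdt-29. The middle count includes mdt-9, whose RefSeq product name, given below, is not that of a Mediator subunit. The share over all genes was 11.5%. With 3 genes the tail count allows a share of up to 56.1% (upper Wilson limit). A window from 2000 bp upstream to 500 bp downstream added mdt-29.

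Genes set in the middle module included mdt-9, mdt-19 and mdt-26. The mdt-9 summit had 292 (rank 494), 138 bp upstream, with 126 in replicate 1 and 160 in replicate 2. It also lay in the windows of Y62E10A.20, Y62E10A.23 and lsm-3, an Sm-like RNA-processing gene, and was nearest to Y62E10A.23. RefSeq names the mdt-9 product as the guanine nucleotide exchange factor MSS4, so the gene carries a Mediator symbol with another product name. The mdt-19 summit had 275 (rank 572), with 145 in replicate 1 and 131 in replicate 2, and at 804 bp upstream it was nearer to apb-1, an adaptin gene that starts 215 bp from it on the other strand. The mdt-26 summit had 231 (rank 822), with 116 in replicate 1 and 119 in replicate 2. It sat 36 bp upstream of mdt-26, nearest to that gene, in the gap of 394 bp to ift-43, an intraflagellar transport gene read the other way.

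The middle gene mdt-1.2 was the nearest miss of all 48. Its pooled signal was 89.2 (rank 3786) against 90.5 for the last peak of the optimal list, 139 bp upstream of the start. Its signal was 37.4 in replicate 1 (rank 5101) and 57.6 in replicate 2 (rank 2882). On the other side of the threshold taf-8 had 91.1 (rank 3664), with 40.2 in replicate 1 (rank 4584) and 51 in replicate 2 (rank 3468). The pooled ranks of mdt-1.2 and taf-8, out of and in the optimal list, were closer to each other than the ranks of either gene in the 2 replicates.

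**Figure D2:**
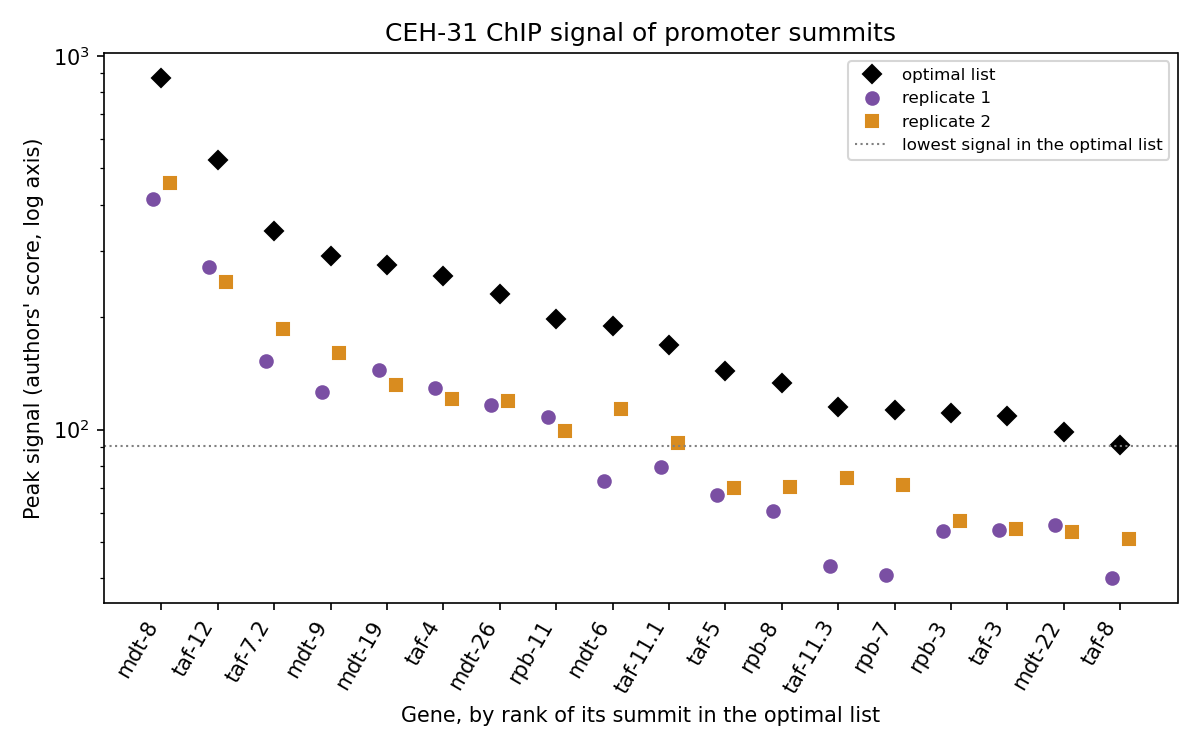
Peak signal (y axis, the authors' score, log axis) of the summit at each of the 18 genes with an optimal promoter summit (x axis, by rank), in the optimal list (diamonds), replicate 1 (circles) and replicate 2 (squares), with the lowest signal of the optimal list dotted. The mdt-8 summit is highest at 873, taf-8 is lowest at 91.1, and rpb-7 and taf-11.3 have the widest spread between replicates on this axis.

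The histone-fold TAFs had an optimal summit at 6 of 12 genes (interval 25.4% to 74.6%), against 11.5% of all genes. TAF4 and TAF12 pair in TFIID, and both genes had one. The taf-12 summit, second strongest of the 48 genes, had 527 (rank 89), with 273 in replicate 1 (rank 71) and 248 in replicate 2 (rank 132). It lay 900 bp upstream in intergenic DNA, with no other gene's window over it and the next gene on the same strand 1970 bp from taf-12. The taf-4 summit had 258 (rank 643), 290 bp upstream, with 129 in replicate 1 and 121 in replicate 2, in the gap of 923 bp to pqn-59, which is read the other way.

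TAF10 pairs with TAF3 or TAF8 in human TFIID. The taf-3 summit had 108 (rank 2912), 312 bp upstream, with 53.9 in replicate 1 and 54.2 in replicate 2, and taf-8 is given above, at 165 bp upstream. The taf-10 summit was in the pooled list but not the optimal one, at 73.1 (rank 4956), 199 bp upstream, with 37.3 and 37.2 in replicates 1 and 2. All 3 genes ranked 2912 or lower, and the taf-3 and taf-8 summits lay in no other gene's window.

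The TAF11 gene has 3 copies in the worm, and TAF13 is the partner of TAF11. The taf-11.1 summit had 168 (rank 1514), 143 bp upstream on chromosome X, with 79.3 in replicate 1 and 92.1 in replicate 2, and no other gene's window held it. The taf-11.3 summit had 115 (rank 2671), 138 bp upstream, with 43.1 in replicate 1 (rank 4131) and 74.1 in replicate 2 (rank 1992). It lay in the gap of 229 bp to urm-1, the gene of a ubiquitin-related modifier, whose start was nearer at 92 bp. No list held a summit for taf-11.2, and taf-13 had one in the replicate 2 list alone. TAF6 pairs with TAF9. Of its copies, taf-6.2 had a pooled summit of 77.9 (rank 4493), 121 bp upstream, with 34.8 and 41.0 in replicates 1 and 2, and neither taf-6.1 nor taf-9 had one in any list.

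TAFs without a histone fold had an optimal summit at 2 of 5 genes (interval 11.8% to 76.9%), against 11.5% of all genes. The taf-7.2 summit had 339 (rank 359), 143 bp upstream, with 153 in replicate 1 and 186 in replicate 2. It lay in the gap of 253 bp to elpc-2, which encodes an Elongator subunit, and was nearer to that gene at 111 bp. Its copy taf-7.1 had a summit 817 bp upstream in the pooled list and none in the optimal list. The taf-5 summit (TAF5 is a WD40-repeat scaffold of TFIID) had 143 (rank 1968), with 67.0 in replicate 1 and 69.9 in replicate 2. It lay 78 bp downstream of the taf-5 start, in its 5′ UTR, and 22 bp upstream of F30F8.5. For taf-1, the largest TFIID subunit, and for taf-2, no list held a summit. In each family with copies, then, one copy had a stronger summit than another, and the listed values do not tell whether the copies are used in the same cells.

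Beyond these, the accounting of the 48 genes is as follows. Besides the 18 genes of the optimal list, 15 had a summit in the pooled list but not the optimal one. In a replicate list alone, 2 genes had one, mdt-4 and taf-13. Over all protein-coding genes the optimal list held a summit for 11.5% and the pooled list for 33.5%. The split used here, by the lists in which a gene had a summit, was not made over all genes. No list held a summit in the promoter window of 13 genes, which were mdt-10, mdt-18, mdt-20, mdt-21, mdt-28, mdt-29, mdt-31, rpb-9, taf-1, taf-2, taf-6.1, taf-9 and taf-11.2. Those of the 15 not described above were mdt-15, mdt-17, mdt-27, mdt-30, rpb-5, rpb-6 and rpb-10. A missing summit means that the peak caller listed none there, not that CEH-31 was absent.

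The 18 summits were about as strong as promoter summits at large. Their median signal was 179 (quartiles 114 and 271), against 165 (quartiles 119 and 249) for the 1775 optimal summits in any gene's promoter window. Among the 1848 strongest peaks of the optimal list were 10 of the 18 (55.6%), against 56.9% of all promoter summits, and among the 369 strongest were 3 (16.7%), against 14.6%. Those 3 were mdt-8, taf-12 and taf-7.2. Taken by family, the stricter counts were in part near the share over all genes. With each summit given to its nearest start, 2 of 20 mdt genes had one (interval 2.79% to 30.1%), against 8.49% of all genes, and among the 1848 strongest peaks 1 of 11 rpb genes had one (9.09%), against 6.83% of all genes.

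Replicates placed and ranked these summits much as they did others. All 18 had a matching summit within 200 bp in both replicates, as had 1770 of 1775 promoter summits (99.7%). The optimal list was kept for reproducibility between these same replicates, so such a match was nearly fixed in advance. The median gap between the replicate summits was 19 bp, against 18 bp over all promoter summits. In 15 of 18 (83.3%) the rank was 3697 or better in each replicate, against 84.0% of all promoter summits. The others were taf-11.3, rpb-7 and taf-8, each of which ranked beyond 3697 in replicate 1 and within it in replicate 2.

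**Figure D3:**
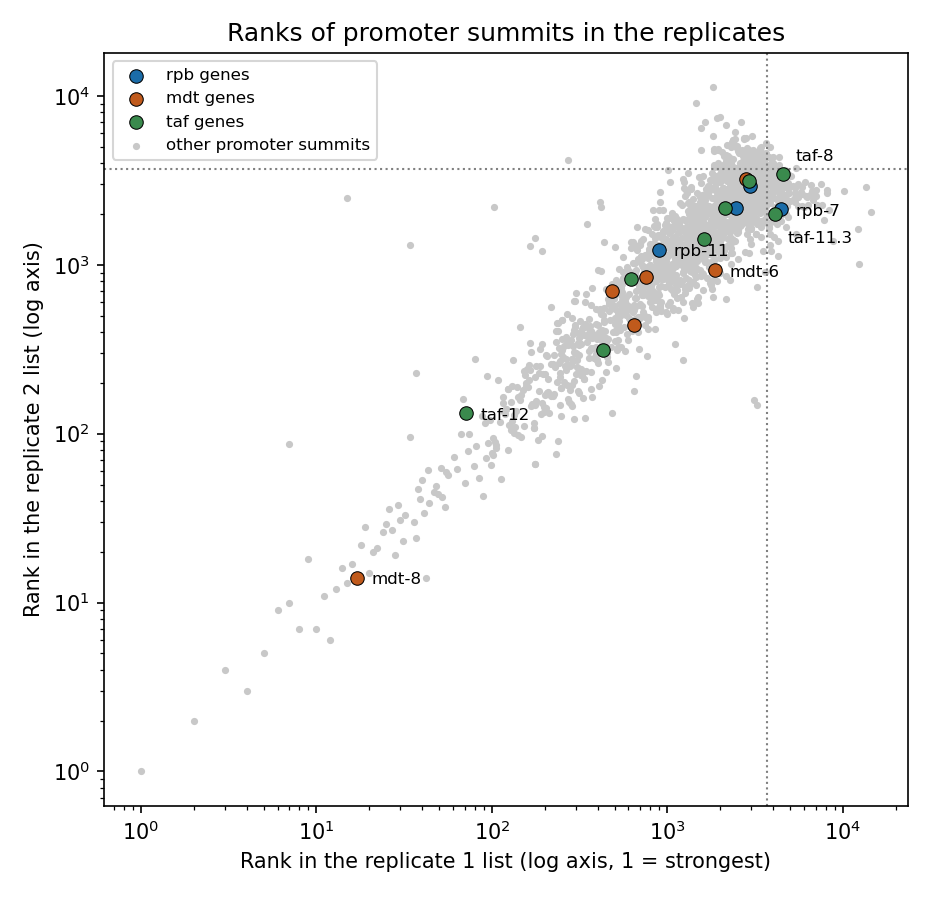
Rank in the replicate 1 list (x axis) against rank in the replicate 2 list (y axis), both log axes with 1 the strongest, for the 18 summits of rpb, mdt and taf genes (large points) and the other promoter summits of the optimal list matched in both replicates (grey). Dotted lines mark rank 3697. The mdt-8 summit is at 17 and 14 and taf-12 at 71 and 132, and rpb-7, taf-11.3 and taf-8 lie right of the vertical line.

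Position relative to the start varied among the 18. From 100 to 170 bp upstream, a range set after these positions had been seen, lay 8 summits (taf-7.2, mdt-9, rpb-11, taf-11.1, rpb-8, taf-11.3, rpb-3 and taf-8), 44.4% of the 18, against 17.7% of 2407 pairs of a gene and an optimal summit over all genes. A second group of 4, mdt-8, taf-12, mdt-6 and mdt-19, lay more than 800 bp upstream (22.2%, interval 9.0% to 45.2%), against 7.89% of all pairs, and this limit was likewise set after the positions had been seen. The stretch from 0 to 350 bp upstream held 12 of 18 (66.7%), against 60.3% of all pairs, and 2 lay downstream (11%), against 5.40%. In a window from 500 bp upstream to 100 bp downstream the 4 distant summits dropped out, which left 14 of 48 genes (29.2%), against 8.98% of all genes, and 3 of 20 mdt genes.

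**Figure D4:**
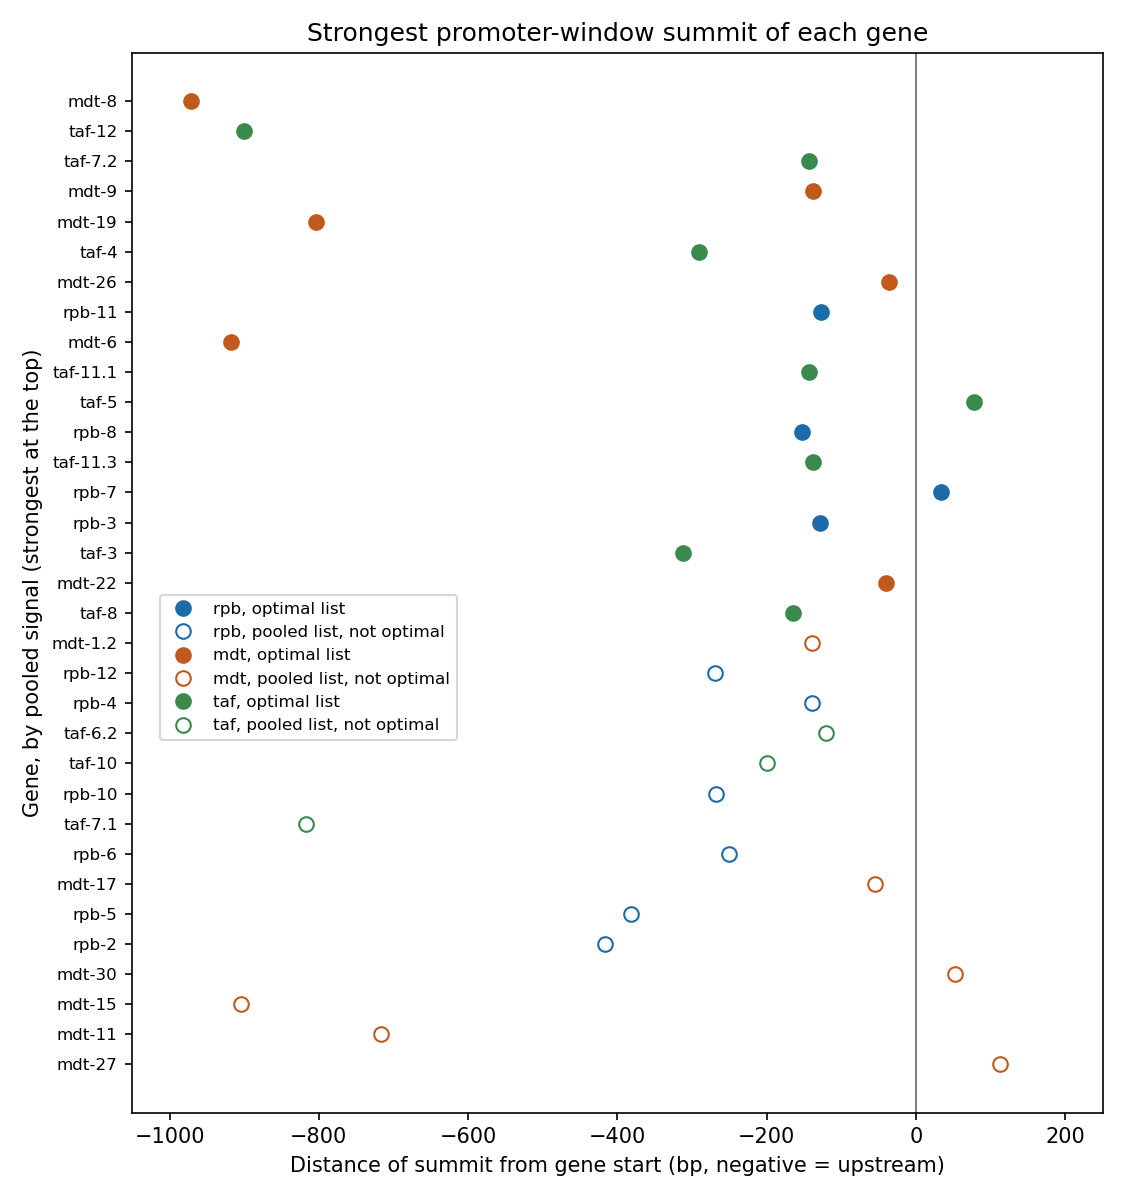
Distance of the strongest pooled promoter summit from the annotated gene start (x axis, bp, negative upstream) for the 33 genes with one, ordered by signal from the top. Filled points are in the optimal list and open points are in the pooled list but not the optimal one. Of the filled points, 8 lie 100 to 170 bp upstream, and mdt-8, taf-12, mdt-6 and mdt-19 lie beyond 800 bp.

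Many of these summits lay in the windows of several genes. Of the 18, 13 (72.2%, interval 49.1% to 87.5%) lay in the promoter window of at least 1 other gene, against 1225 of the 2407 pairs over all genes (50.9%), a share within that interval. Among the pairs a shared summit counts once for each gene. Counted once per summit, the share was 593 of 1775 promoter summits (33.4%), which is below that interval. The start nearest to the summit was that of the named gene in 10 cases and of another gene in 8 (mdt-8, taf-7.2, mdt-9, mdt-19, mdt-6, taf-5, taf-11.3 and rpb-7). Over all genes, 2299 had an optimal promoter summit, and 1695 of these were the nearest start to one. Those in no other gene's window were 5, namely taf-12, taf-11.1, taf-3, mdt-22 and taf-8. The peak lists do not tell which gene of a shared window, if any, a summit acts on.

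How the neighbours lie was set beside these counts. Where the upstream neighbour ran the other way and began within 1000 bp, 5 of 9 rpb, mdt and taf genes had an optimal summit (55.6%), against 27.6% of all genes so placed, and the other 4 (rpb-4, rpb-10, rpb-12 and taf-6.2) had pooled ones. Where the upstream neighbour ran the same way and ended within 500 bp, 3 of 18 had one (mdt-6, mdt-8 and rpb-8, 16.7%), against 6.64% of all genes so placed. That arrangement held 37.5% of the 48 genes, against 17.7% of all genes. Genes whose start lay inside another gene had one in 4 of 7 cases (57.1%), against 7.64% of all such genes. With a same-strand neighbour farther off it was 4 of 9 (44.4%), against 7.06%, and with an opposite-strand neighbour farther off 2 of 5 (40.0%), against 10.8%.

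Many worm genes are transcribed together as operons from a promoter in front of the first gene, so the first gene of each run was looked at as well. No operon annotation was used, and a run here is only a chain of genes on 1 strand with gaps of at most 500 bp. The 18 genes behind such a neighbour stood 38 to 485 bp from it (median 104.5 bp, with 13 at 150 bp or less). The first gene of the run had an optimal summit for 5 of the 18 (27.8%, interval 12.5% to 50.9%), against 24.7% of 3539 genes placed the same way. For mdt-10, mdt-11 and mdt-27 the first gene had one and the gene itself had none in the optimal list. The first gene of the mdt-10 run, cec-3, had a signal of 237 at 148 bp upstream. That of mdt-11, wip-1, had 355 at 322 bp upstream, and that of mdt-27, pacs-1, had 95.6 at 785 bp upstream. For mdt-6 and mdt-8 the first gene's summit was the same one.

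By chromosome, optimal summits were found at 4 of 10 of these genes on I, 5 of 11 on II, 5 of 12 on III, 1 of 5 on IV, 1 of 6 on V and 2 of 4 on X. On the autosomes together this was 16 of 44 (36.4%), against 11.4% of all autosomal genes, and on X 2 of 4, against 12% of all X genes. The 2 on X were taf-11.1 and taf-3.

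The DNA around the 18 summits was searched on both strands for the 2 homeodomain cores. A TAATTG was within 100 bp of 1 summit, rpb-7 (5.56%), against 11% of all 1775 promoter summits, and a TAAACG of 1, taf-7.2 as printed above (5.56%), against 7.38%. Either core was found at 2 of 18 (11%), against 17.3%. These letters do not overlap one another as motifs, and their absence says only that they are not in the window searched. GAGAGA, the motif of the GA runs printed for taf-12 and mdt-19, was within 50 bp of 6 summits (taf-12, mdt-19, taf-5, rpb-8, taf-3 and taf-8, 33.3%), against 26% of all promoter summits. TATAAA was within 50 bp of 2 (mdt-26 and taf-4, 11%), against 3.10%.

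Other features of the sites were close to those of promoter summits at large or rested on few sites. The median GC content within 100 bp of the summit was 39.3% (quartiles 36.9% and 47.6%), against 43.8% (quartiles 38.8% and 48.8%). Summits lay between genes in 14 of 18 cases (77.8%), against 86.9% of all promoter summits, in a 5′ UTR in 2 (mdt-6 and taf-5), in a coding exon in 1 (rpb-7) and in an intron in 1 (mdt-22). None of the 18 had a tRNA, snoRNA, snRNA, rRNA or miRNA gene within 100 bp (upper Wilson limit 17.6%), against 3.44% of all promoter summits.

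The rest of the Pol II machinery was counted from a list of 43 genes under other symbols, of which 12 (27.9%, interval 16.7% to 42.7%) had an optimal promoter summit and 29 (67.4%) a pooled one. These fractions stand beside the 11.5% and 33.5% of all genes given above, and beside 37.5% and 68.8% of the rpb, mdt and taf genes. The list of 43 may not hold every Mediator gene under another name. Of the 7 that it holds, 2 had an optimal summit. These were sop-3, the MED1 homologue, at a signal of 203 and 158 bp upstream, and dpy-22, the MED12 homologue of the kinase module, at 167 and 505 bp upstream. The copy of MED1 with an mdt symbol, mdt-1.2, is the near miss described above.

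Initiation factors had optimal summits at 5 of 19 genes (interval 11.8% to 48.8%), against 11.5% of all genes. They were pqn-51, the large subunit of TFIIA, at 325 (104 bp upstream), cdk-7, the kinase of TFIIH, at 258 (19 bp), ttb-1, which is TFIIB, at 212 (563 bp), gtf-2E2 of TFIIE at 160 (62 bp) and gtf-2H3 of TFIIH at 115 (112 bp). The TBP gene tbp-1, the partner of the TAFs, had no summit in any list. Elongation factors had optimal summits at 5 of 16 genes (interval 14.2% to 55.6%), against 11.5% of all genes. They were cdc-73 at 303 (126 bp), pafo-1 at 136 (77 bp) and rtfo-1 at 149 (470 bp), of the PAF and Rtf1 group, cdk-9, the kinase of P-TEFb, at 271 (159 bp), and emb-5, the SPT6 homologue, at 134 (362 bp). Optimal summits were thus found at genes of each step, from the polymerase and TFIID through Mediator to elongation, and at a minority of the genes of each step.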

How the data were processed

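The authors deposited 8 peak lists of the CEH-31 experiment, 4 in ce10 and 4 in ce11 coordinates, and the 4 ce11 lists were used. A text deposited with them gives as sources the replicate's alignments and a further file for each replicate list, both alignments and the same further file for the pooled list, and those 3 lists for the optimal list, which is described as thresholded on the irreproducible discovery rate (IDR). Which aligner, caller and reproducibility cutoff produced them is not stated in what was used here, and the control library was not used here. The deposited signal of each peak was used by value and by rank within its list. The deposited −log10 q was not used for any result. Optimal peaks carry the same signal as in the pooled list. Depth is unknown because the lists hold no counts.

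Coordinates are 1-based ce11, genes are from Ensembl release 115, and sequences are from the RefSeq genome of WBcel235. Genes named are those with an optimal promoter summit, the 5 others with the highest pooled signal, all other rpb, mdt and taf genes by name or position, and of the other machinery genes ama-1 and those with an optimal summit (45 listed, of which 43 were in the annotation). Further values and the neighbours named, tbp-1 and the motifs GAGAGA and TATAAA were chosen after values were seen. Genes and lists were chosen with earlier results of these data known. Python 3.11.15, pandas 2.3.3 and scipy 1.17.1 were used. Assignment of summits to windows was tested on simulated peaks. Alternatives changed the window, the peaks used, the gene a summit was given to, the replicate and the gene start. The replicates are biological per the labels, and their separate origin is not described further.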

Additional observations from a re-analysis of the deposited data

How the results depend on the processing

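The count of 18 of 48 genes moved by more than 1.5 times under 3 alternatives: 10 when a summit was given to its nearest start only (8.49% of all genes), 10 among the stronger 1848 peaks (6.83% of all genes), and 33 in the pooled list (33.5% of all genes). For rpb genes (4) the stronger peaks gave 1, which is 9.09% of 11 and near the share of all genes, and the pooled list 10. For mdt genes (6) the shorter window of 500 bp upstream to 100 bp downstream gave 3 (8.98% of all genes), the nearest start 2 of 20, near the share of all genes, and the pooled list 12. For taf genes (8) the nearest start gave 5 and the stronger peaks 4, and for the other machinery genes (12) the pooled list gave 29. A window of 2000 bp upstream to 500 bp downstream gave 19 of 48 (15.3% of all genes), with mdt-29 added. Peak overlap in place of the summit gave the same 18 (12.5% of all genes). Any annotated transcript start, an alternative chosen after seeing the data, gave 19 (12.5% of all genes), with mdt-18 added. Taking the 3697 strongest peaks of a single replicate gave 15 without replicate 2 (rpb-7, taf-11.3 and taf-8 lost) and 20 without replicate 1 (mdt-1.2 and rpb-4 gained). No paired analysis was possible because the 2 replicates form 1 group.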
